A study of Rattus norvegicus with 16 samples.

Results

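Described here are 7 genes of V(D)J recombination and early lymphoid development in rat blood: Rag1, Rag2, Dntt, Ptcra, RT1-T18, Notch3 and Myb. They were selected on their normalized counts in 1 blood library, that of control 12, in which each was highest, so the level of control 12 against the rest is given as a description without a test. Each symbol had 1 entry in the count tables, and all 7 were among the 18031 genes that every library lists, of 26405 genes listed for any library. The blood came from 16 male Sprague-Dawley rats aged 85 to 90 days, each given saline 4 times at 1 ml/kg with 2 h between injections, and was taken from the heart 3 h after the last injection. Food and water were withheld during the injections and body temperature was read hourly in all animals. The 16 libraries form 1 group, saline control, numbered 1 to 16 as in the labels and each from an animal with its own identifier. No treated animals were compared.

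The RAG1 and RAG2 proteins together form the recombinase that cuts DNA beside the V, D and J segments of antigen receptor genes, and the general end joining enzymes of the cell seal the cuts. Terminal deoxynucleotidyl transferase, encoded by Dntt, adds untemplated nucleotides at the joints. Lymphocyte precursors in the thymus and bone marrow use these genes and mature lymphocytes shut them off, so circulating blood is normally poor in their transcripts. Ptcra encodes the surrogate alpha chain of the pre-T-cell receptor, with which thymocytes test a rearranged beta chain. Notch3 is a Notch receptor found on immature thymocytes and on the smooth muscle of vessels, and Myb is a transcription factor of blood progenitors and dividing thymocytes. RT1-T18 is a class I gene of the rat major histocompatibility complex, for which RefSeq lists the mouse thymus leukemia antigen symbol Tla as a synonym.

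The stretches of 250 bases before the annotated start of the genes with the widest gap between control 12 and the other libraries are shown because these genes were high together in 1 library. They come from RefSeq on build GRCr8, whereas the counts were made on rn5, so the coordinates apply to GRCr8 only. Of the 7 genes 6 had an entry. Notch3 is not printed, and Myb had none. Each is written 5′ to 3′ on the strand of the gene. Capitals mark matches on either strand to the E-box CANNTG, the RUNX core TGTGGT, the core TGGGAA shared by RBPJ and Ikaros sites, and the TATA box TATAAA. Adjoining capitals can belong to overlapping or to neighbouring matches.
Rag1, chr3:108383185-108383434, minus strand: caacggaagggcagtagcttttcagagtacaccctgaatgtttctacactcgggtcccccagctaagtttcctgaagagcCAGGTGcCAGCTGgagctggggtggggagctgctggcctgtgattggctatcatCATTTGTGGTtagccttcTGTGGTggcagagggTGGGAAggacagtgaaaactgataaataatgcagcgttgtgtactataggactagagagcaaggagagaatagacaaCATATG
Rag2, chr3:108357149-108357398, plus strand: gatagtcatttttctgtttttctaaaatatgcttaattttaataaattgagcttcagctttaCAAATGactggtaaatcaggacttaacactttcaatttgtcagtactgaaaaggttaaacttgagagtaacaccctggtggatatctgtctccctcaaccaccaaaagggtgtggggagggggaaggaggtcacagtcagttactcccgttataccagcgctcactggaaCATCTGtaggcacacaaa
Dntt, chr1:249805552-249805801, plus strand: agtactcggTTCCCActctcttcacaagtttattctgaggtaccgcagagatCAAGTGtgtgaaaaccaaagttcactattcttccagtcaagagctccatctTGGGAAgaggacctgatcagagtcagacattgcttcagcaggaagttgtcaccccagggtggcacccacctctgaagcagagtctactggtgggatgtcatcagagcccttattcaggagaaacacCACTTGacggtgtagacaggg
Ptcra, chr9:21716272-21716521, plus strand: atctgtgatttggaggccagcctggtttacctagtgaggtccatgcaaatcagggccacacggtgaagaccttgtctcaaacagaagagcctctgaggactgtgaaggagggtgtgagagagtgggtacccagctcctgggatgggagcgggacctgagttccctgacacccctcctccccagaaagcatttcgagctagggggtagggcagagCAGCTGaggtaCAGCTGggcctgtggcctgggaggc
RT1-T18, chr20:2610028-2610277, plus strand: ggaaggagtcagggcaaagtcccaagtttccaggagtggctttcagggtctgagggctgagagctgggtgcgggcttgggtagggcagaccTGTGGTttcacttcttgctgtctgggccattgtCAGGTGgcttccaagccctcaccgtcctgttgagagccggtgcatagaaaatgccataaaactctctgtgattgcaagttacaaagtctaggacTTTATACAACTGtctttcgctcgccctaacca

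The E-box was present in 5 of the 6 stretches, and in 65.5% of the 33469 promoters of the RefSeq table cut to the same length. Its form CAGGTG, which E-proteins prefer, stood 170 bases before the start of Rag1 and 126 bases before that of RT1-T18, and occurs in 15.9% of all promoters. Every CAGGTG match is also an E-box match. The RUNX core was found in the same pair of genes, at 112 and 98 bases in Rag1 and at 159 in RT1-T18, against 14.5% of all promoters. In Rag1 the match at 112 shares bases with an E-box that begins at 116. TGGGAA was present in Rag1 and Dntt (22.1% of all promoters), and TATAAA in RT1-T18 alone (12.9%). There it matched on the strand opposite to the gene, as TTTATA, and adjoins an E-box without sharing bases. The MYB core AACNG, left in lower case because it is so frequent, occurred in all 6 stretches and in 75.2% of all promoters. Neither GATAAG, a form of the GATA motif (6.18% of all promoters), nor GAGGAA, a form of the ETS motif (23.3%), was found in these windows. Shorter or other forms of these motifs, such as GGAA, were not searched for, so ETS or GATA sites can still be present. Such matches describe the letters and do not show binding.

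Library totals ranged from 21466776 to 31189549 estimated counts, so 3 counts, taken as the smallest detectable amount, correspond to 0.096 to 0.14 CPM, the count scaled to the library total. The labelled tissue was checked with the blood markers Hbb, Ptprc, Cd3e and S100a9, and each had counts in all 16 libraries. Some libraries also carried transcripts of other tissues. The summed normalized counts of 8 liver genes reached 463339 in control 2 and 20358 in control 8 against a median of 52.0 without control 12, and 6 measured cardiac muscle genes summed to 486 in control 10 against a median of 15.5. Normalized counts are rounded counts divided by DESeq2 size factors. In bulk blood a lower or higher level can reflect the number of cells of a type or the RNA per cell, which cannot be told apart.

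Rag1 (ENSRNOG00000004630), the DNA-cutting subunit of the recombinase, had 5695 counts in control 12, which is 4189 normalized counts. In the other 15 libraries it lay between 0 in control 13 and 23.4 in control 10, with a median of 11.0. Control 12 alone therefore held 97.4% of all Rag1 counts (95% Wilson interval 96.9 to 97.7%). It stood 179 times above the next highest library (exact binomial interval of the ratio 109 to 321), and no other library came near it. Amplified copies of a molecule are counted separately, so this and every later interval on counts describes counting error alone.

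Rag2 (ENSRNOG00000004623), the partner subunit, had 572 counts or 421 normalized counts in control 12. The others ranged from 0 to 7.43 normalized counts with a median of 3.00, and the next highest was control 5. Controls 7, 15 and 16 had no Rag2 count at all. Control 12 held 93.2% of its counts (90.9 to 94.9%) and exceeded the next library 56.6 times (25.9 to 155).

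Dntt (ENSRNOG00000013615) had 1497 counts or 1101 normalized counts in control 12. It ranged from 2.59 in control 8 to 32.5 in control 7 elsewhere, with a median of 19.7. Control 8, with 2 counts, was the only library at or under the floor of 3 counts. The groups of values did not touch: control 12 was 33.9 times the next highest (23.0 to 52.1) and held 83.4% of the counts (81.6 to 85.0%).

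Ptcra (ENSRNOG00000042581), the pre-T-cell receptor chain, had 80 counts or 58.8 normalized counts in control 12. No other library had more than 2 counts, and 7 had none, so in each of them it was at or under the floor of 3 counts. The ratio to the next highest, control 16 with 2.50 normalized counts, was 23.5 with a wide interval of 6.30 to 198. Over the summed counts of the 15 libraries, 10 in all, control 12 was 88.8 times higher (45.9 to 192).

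RT1-T18 (ENSRNOG00000030666) had 691 counts or 508 normalized counts in control 12 and 0.895 to 10.0 elsewhere, with a median of 3.11. Control 16 was the next highest and the ratio was 50.8 (25.6 to 118). Its estimated counts were fractional in several libraries. RSEM gives fractions where reads fit several transcripts, and class I genes are much alike, so the level of RT1-T18 is less certain.

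Notch3 (ENSRNOG00000004346) and Myb (ENSRNOG00000014313) were also highest in control 12, but by far less. Notch3 had 33 counts or 24.3 normalized counts there, against 0 to 6.72 elsewhere with a median of 2.59. The ratio to control 11, the next highest, was 3.61 (1.69 to 8.58). Myb had 604 counts or 444 normalized counts in control 12, against 37.6 in control 8 to 137 in control 4 and a median of 75.1. Its ratio to the next highest was 3.24 (2.68 to 3.94), and control 12 held 32.5% of all Myb counts (30.4 to 34.7%), so most Myb counts of the series came from the other animals.

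**Figure D1:**
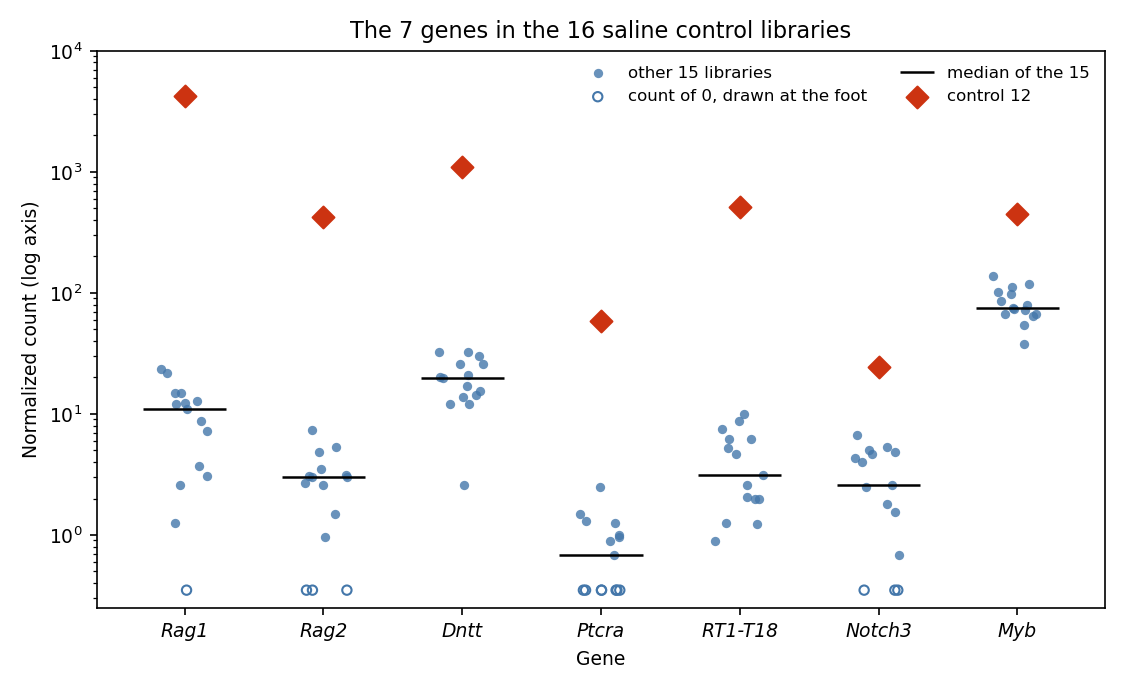
Normalized counts (log axis) of each of the 7 genes (horizontal axis) in the 16 libraries, with control 12 as a diamond, the other 15 as points, a line at their median and counts of 0 as open circles at the foot. The diamond lies above every point for all 7 genes, widest for Rag1 (4189 against at most 23.4) and narrowest for Myb (444 against at most 137).

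Control 12 was thus the highest library for 7 of 7 genes, which is how they were selected. It was the highest library for 9.91% of all 15494 genes whose mean reached 1 normalized count. A gap of at least 4 times to the next highest library was reached by 5 of the 7, all but Notch3 and Myb. Among all 11349 genes with at least 20 normalized counts in control 12, 63 or 0.555% had such a gap. Neither share supports anything about the 7 genes, since the same values chose them. At the threshold of 4, Ptcra with 23.5 was the nearest of the 7 above it and Notch3 with 3.61 the nearest below.

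The 20 genes with the widest gap were Rag1, Rag2, RT1-T18, Tecta, Gjb6, Fgfbp1, Gpihbp1, Mgat5b, Dntt, Pdzrn4, Ankrd5, Ptcra, Sncg, Nnat, Lgals12, Olfml3, Mmp12, Cacnb2, Ccl21 and Adipoq. Rag1, Rag2 and RT1-T18 held the top 3 places. Tecta, a tectorial membrane protein of the inner ear, was next with 82.4 normalized counts in control 12 against at most 1.77. Several of the rest are genes of fat or endothelium, such as Gpihbp1 (54.4 against 1.56), which anchors lipoprotein lipase to capillaries, and the fat hormone Adipoq (1042 against 68.5). Thy1, a surface antigen of rat thymocytes, ranked 24 and so lies outside these 20 genes. It is named here only after its value was seen, and had 2493 against at most 258.

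The counts of the 7 genes were also compared by their mix. They summed to 9172 in control 12, and to between 40 and 253 in each of the others. In control 12 Rag1 made up 62.1% of this sum (Wilson interval 61.1 to 63.1%), against 8.28% (7.12 to 9.62%) of the 1871 counts of the other 15 together. Myb had the reverse pattern, with 6.59% in control 12 (6.10 to 7.11%) and 67.1% in the others (64.9 to 69.2%). The share of Dntt was close in both, at 16.3% (15.6 to 17.1%) and 15.9% (14.3 to 17.7%). Rag2 took 6.24% in control 12 and 2.24% in the others, RT1-T18 7.53% and 3.47%, Notch3 0.360% and 2.46%, and Ptcra 0.872% and 0.534%. The intervals hold for counting error in 1 library and in a sum of 15, not for the spread between animals, so these shares are a description.

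**Figure D2:**
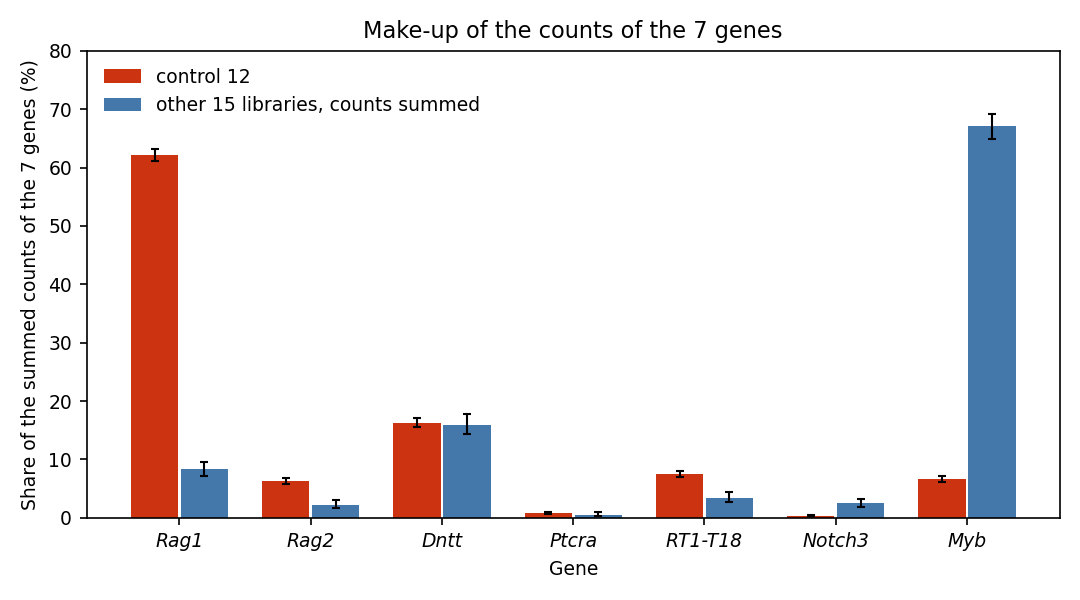
Share of each gene (horizontal axis) in the summed counts of the 7 genes (vertical axis, %), in control 12 and in the other 15 libraries together, with 95% Wilson intervals as bars. Rag1 takes 62.1% in control 12 and 8.28% in the others, Myb 6.59% and 67.1%, and Dntt 16.3% and 15.9%.

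Pairs of genes can be read without reference to the total. For each Rag2 count there were 9.96 Rag1 counts in control 12 (exact interval 9.13 to 10.9) and 3.69 (2.61 to 5.32) in the others summed. Per Dntt count there were 3.80 Rag1 counts (3.59 to 4.03) against 0.520 (0.426 to 0.634). Per Myb count, Dntt had 2.48 counts (2.25 to 2.73) in control 12 and 0.237 (0.209 to 0.270) in the others. The ratio of Ptcra to RT1-T18 was 0.116 (0.0907 to 0.146) and 0.154 (0.0705 to 0.301), with overlapping counting intervals. Gene lengths cancel between the 2 sides of each comparison, since the same pair is read in both.

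Genes beside the 7 on the chromosome were looked up in RefSeq (GRCr8). Rag1 and Rag2 are neighbours of each other, and Traf6, a signalling adaptor on the other side of Rag1, had 108 normalized counts in control 12 against 79.7 to 232 elsewhere. Blnk next to Dntt (499 against 213 to 755) also lay inside the range of the other libraries. So did the neighbours of Myb, Hbs1l (1004 against 619 to 1689) and Ahi1 (152 against 50.6 to 156), of which Ahi1 had rank 2 in control 12. Iftap overlaps Rag2 in RefSeq and had no value under that name or its synonyms. RSEM by default does not use strand, so reads counted for Rag2 could in part belong to it.

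The other genes of the joining reaction were expressed in all 16 libraries at levels much closer to each other. Of 15 measured genes for end joining and the DNA damage response at the breaks, 4 were highest in control 12. The share of all genes was 9.91%. Lig4, the ligase that seals the joints, had 2512 normalized counts there against 970 to 1649, and Dclre1c, the Artemis nuclease that opens hairpins, 614 against 226 to 525. Prkdc, the DNA-dependent kinase, had 953 against at most 898, and Xrcc6, which encodes Ku70, 267 against at most 263. The median log2 ratio of control 12 to the median of the others was 0.41 for the 15 genes, 5.74 for the 7 genes and 0.02 for all genes. That of the 7 genes comes from the values that chose them. Under TMM scaling 3 of the 15 were highest in control 12, and under total count scaling 7, when control 12 was the highest library for 19.3% of all genes. Total count scaling moved the median of all genes to 0.33 and that of the 15 genes to 0.72.

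Notch genes other than Notch3 did not share its position. None of the 16 measured was highest in control 12, and Notch2, with 522 normalized counts against 555 to 1982, was lowest there. Notch1 was 873 against 847 to 2341 and the feedback target Nrarp 83.9 against 43.6 to 166. The genes with the highest ratio to the next library, Adam10 (1136 against at most 1537), Notch4 (20.6 against 28.7), Jag2 (3.68 against 5.30) and Dll4 (2.94 against 4.47), were all below it. The median log2 ratio was -0.15, and 0.15 under total count scaling, which stays below the shift of all genes under that scaling.

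Among 18 measured lymphoid transcription factors, 1 was highest in control 12: Tcf12, an E-protein, with 533 against 163 to 493. Id3, an inhibitor of E-proteins, had 845 against at most 892, Tox 279 against 307 and Tcf7 5679 against 7377. Runx1 was lowest in control 12, at 86.1 against 116 to 395. The median log2 ratio of the list was -0.01.

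Genes of the T-cell receptor complex were moderately high in control 12. The summed level of 15 genes was 34210 normalized counts, the highest of the 16 libraries, against 17743 to 32438. Of these, 6 had their highest value there, or 5 under TMM scaling: Cd8b (1553 against at most 1094), Cd3d (2548 against 2053), Cd3g (3255 against 2648), Cd8a (4034 against 3322), Lat (2445 against 2289) and Cd3e (2772 against 2687). Cd4 lay inside the range, at 1106 against 516 to 1662. The median log2 ratio was 0.45.

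Of 10 measured genes of immature thymocytes, 3 were highest in control 12, against 9.91% of all genes. Their summed level, 10095 normalized counts, ranked 2 of 16. Ccr9, the chemokine receptor of thymocytes and gut-homing T cells, had 730 normalized counts against 122 to 300. Arpp21, a phosphoprotein of thymocytes and brain, had 796 against 311 to 560 and the activation and maturation antigen Cd69 1559 against 462 to 1466. Tdrd5 was 32.4 against at most 35.1. Inside the range of the other libraries were Cd24 (338 against 126 to 504), Cd1d1 (300 against 206 to 426) and Il2ra (246 against 121 to 322). So were Il7r (3114 against 1662 to 4896) and Cd38 (2980 against 1880 to 3745). Aqp11 had 0, and Endou, whose mean is under 1 and which is not among the 10, had 0.736. The median log2 ratio of the 10 genes was 0.29.

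Among 13 measured B-lineage genes none was highest in control 12, and Cd93 was lowest there (74.3 against 74.7 to 275). The median log2 ratio of this list was 0.25, close to the 0.29 of the immature thymocyte list. The surrogate light chain genes Igll1 and Vpreb1 had 2.21 and 0 normalized counts. The genes closest to the next library were Vpreb2 (8.83 against 10.3), Cd79b (4712 against 5973), Pou2af1 (1670 against 2394) and Pax5 (288 against 435). Of 12 measured progenitor genes none was highest in control 12, and 2 were under total count scaling, against 19.3% of all genes. Kit was 15.4 against 2.48 to 315, Gfi1 104 against 59.6 to 123 and Cd34 8.83 against 0 to 10.9, and Flt3 had 0.916 times the level of the next highest library. The granule protease Ctsg, whose mean is under 1, had 8.83 against at most 1.24.

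Cell cycle genes were often highest in control 12, in 13 of 20, against the 9.91% of all genes given above, and in 14 under total count scaling, against 19.3% of all genes. The ratios were unequal. Top2a, the topoisomerase of dividing cells, had 612 normalized counts against 28.8 to 115, Ccna2 154 against 11.3 to 34.0, Cdk1 178 against 10.6 to 62.6 and Kif11 254 against 59.6 to 116. Others lay inside the range: Mki67 was 1565 against 660 to 2808, and Rrm2 1534 against 366 to 6305. The summed level of the list, 17775, ranked 7 of 16, since control 10 had 33880.

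**Figure D3:**
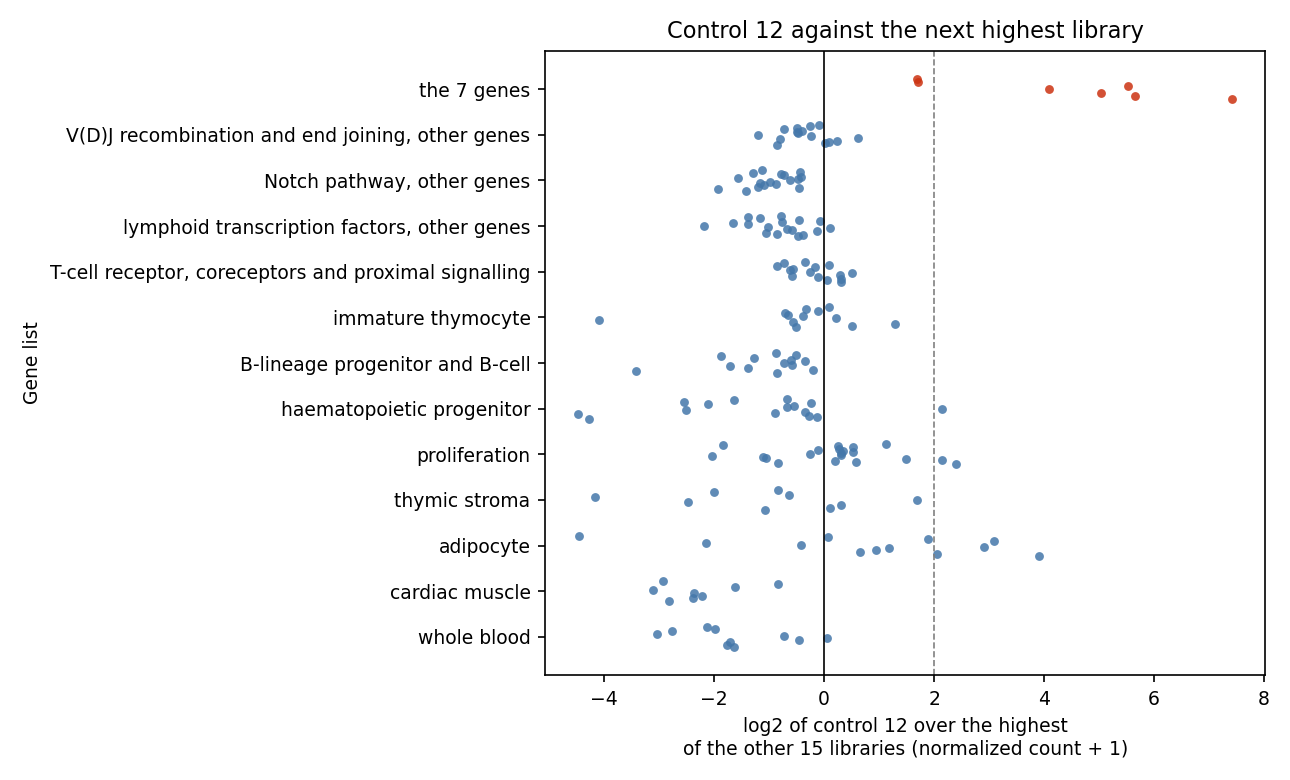
For each gene of 12 lists and the 7 genes (vertical axis), the log2 of the normalized count + 1 in control 12 over that of the highest other library (horizontal axis); the solid line marks equal levels and the dashed line a ratio of 4. The liver list, highest in control 2 for all of its genes, is not drawn. The 7 genes lie to the right of the solid line, and of the lists the cell cycle and adipocyte genes have the most points there.

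Transcripts of other tissues were checked in control 12 beside the 7 genes. Adipocyte genes were high: 9 of 12 had their highest value there, and their summed level was 7837 normalized counts against 197 to 5737, the latter in control 2. Adipoq was at 1042 against a median of 0.895, Lep at 60.3 against at most 6.25, Fabp4 at 1965 against at most 260, and Plin1 at 35.3 against at most 7.78. Whether the adipocyte transcripts and the 7 genes share a source was not tested. Control 10 had the next highest level of Adipoq, Fabp4 and Plin1, and control 16 that of Lep. Rag1 was 23.4 normalized counts in control 10, the highest of the other 15 libraries, and 1.25 in control 16. By CPM, Rag1 was higher in control 3 (1.10) than in control 10 (0.596). Control 2 had the highest Pck1 (2797 against 127 in control 12) and the next highest Car3 (2419). It also had the highest sum of liver genes, and its Rag1 was 7.16.

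Genes of the thymic stroma gave a mixed picture in control 12. The epithelial genes Aire and Krt5 had 1.47 normalized counts each, Psmb11 0.736 and Epcam 0. Keratin gene Krt14 was highest there, at 39.7 against at most 11.7, whereas Krt8 was 36.8 against at most 209 and a median of 6.24. Cxcl12, a chemokine gene of stromal cells in many tissues, was 74.3 against a median of 0.883 and at most 133. Over the 6 genes of the list with a mean of at least 1 normalized count, the median log2 ratio of control 12 to the median of the others was 1.59. The summed level of the 6 stromal genes whose mean reached 1 was 478 against 186 to 673, of which Ly75, a gene also used by leukocytes, gave 327. Another 5 genes of this list are not listed for every library. Of these Tbata, a gene of thymic epithelium, brain and testis, had 15 counts in control 12 and none in the 10 other libraries that list it. The chemokine gene Ccl25 had 5 counts against at most 1. Foxn1 and Pax9 had 0, and Prss16 was not listed for control 12. Cardiac muscle genes summed to 67.7 in control 12 and liver genes to 22.8, against 0 to 486 and 14.2 to 463339.

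In the other 15 libraries each gene was below control 12 by the selection. The trace levels there could still be compared among themselves for the more abundant genes. Mean levels were 9.98 ± 7.15 normalized counts for Rag1, 2.73 ± 2.09 for Rag2, 19.7 ± 8.45 for Dntt, 0.672 ± 0.763 for Ptcra, 4.24 ± 2.93 for RT1-T18, 2.93 ± 2.21 for Notch3 and 82.8 ± 26.3 for Myb (SD, n = 15 each). At or under the floor of 3 counts were 4 libraries for Rag1, 11 for Rag2, 1 for Dntt, 15 for Ptcra, 8 each for RT1-T18 and Notch3, and 0 for Myb. The variance of the counts, not scaled for library size, was 6.73 times their mean for Rag1, 5.13 for Dntt and 12.9 for Myb. Counting alone would make them equal only in libraries of equal size. Size factors ran from 0.642 in control 10 to 1.46 in control 3, which raises these ratios, so they do not measure spread beyond counting. For Ptcra it was 0.786 times, so its spread was no wider than counting error, and differences between libraries were not detectable at this depth.

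No library was low or high throughout. Control 8 was lowest in Dntt (2.59) and Myb (37.6), low in Rag1 (2.59), and had the lowest summed T-cell list, 17743. Control 16 had 1.25 normalized counts of Rag1 and none of Rag2, but 30.0 of Dntt, and was the highest of the 15 for RT1-T18 and Ptcra. Control 13 had no Rag1 count and 0.964 Rag2, yet 15.4 Dntt and 73.2 Myb. Controls 3 and 10 were the highest for Rag1, at 21.9 and 23.4.

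**Figure D4:**
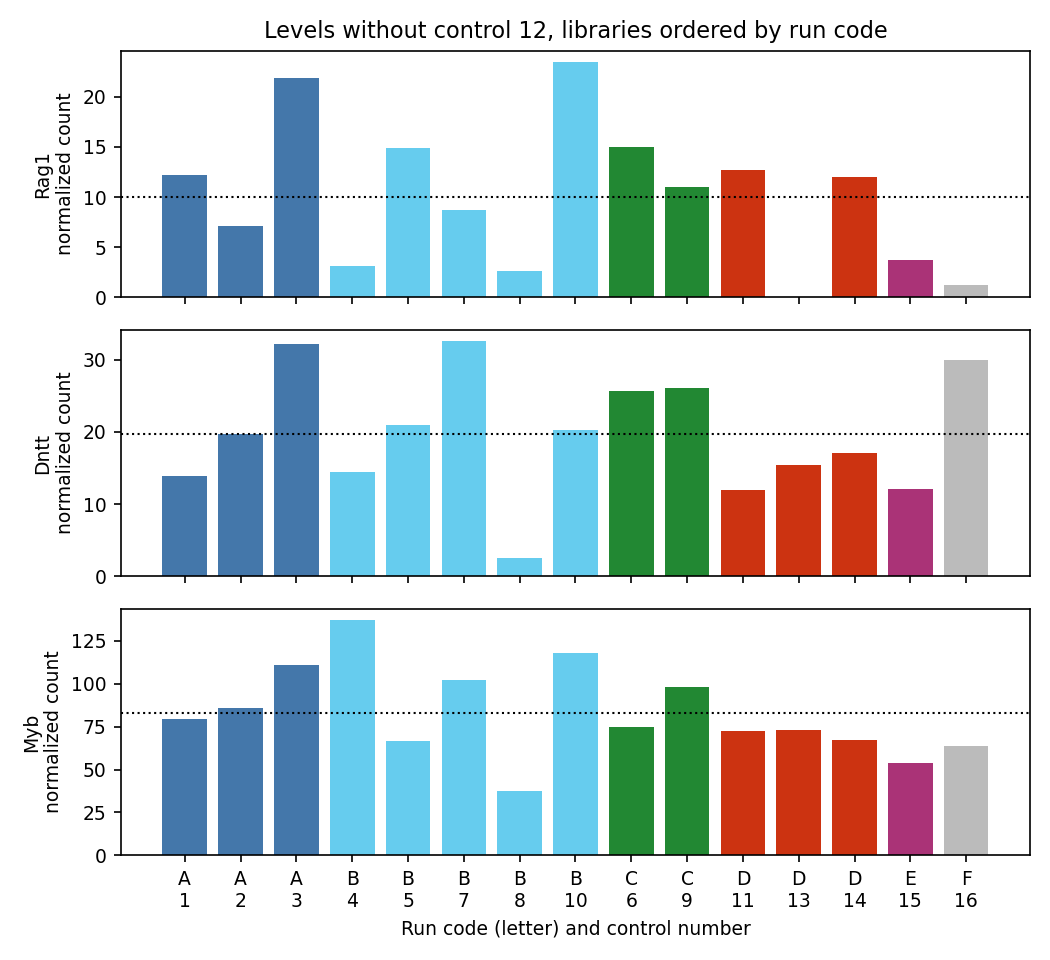
Normalized counts (vertical axes, from 0) of Rag1, Dntt and Myb in the 15 libraries without control 12, ordered along the horizontal axis by run code and control number, with the mean as a dotted line. Run D (controls 11, 13 and 14) spans 0 to 12.7 for Rag1, 12.0 to 17.0 for Dntt and 67.0 to 73.2 for Myb, within the range of the other runs except for control 13 at 0 for Rag1, where the lowest of the others is 1.25.

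Whether the trace levels differed between libraries with the same code as control 12 and the rest was tested without that library. By the selection no other library reached its level, so the test does not ask whether the high level was shared. The codes, called runs A to F here, come from the names under which the libraries were deposited. The labels do not say what they stand for, so a sequencing batch and an experiment cannot be told apart here. Controls 15 and 16, of runs E and F, list 18677 genes as run D does, and the remaining codes list other numbers. Whether they belong with run D was not tested, and they are counted here with the other runs. Control 12 is of run D with controls 11, 13 and 14. Rag1 averaged 8.24 ± 7.14 normalized counts in these 3 and 10.4 ± 7.40 in the 12 libraries of other runs (SD), Dntt 14.8 ± 2.59 and 20.9 ± 9.04, and Myb 70.9 ± 3.37 and 85.8 ± 28.8. In an exact two-sided permutation test over all assignments of 3 among the 15 libraries, on log2(normalized count + 1), p was 0.45 for Rag1, 0.73 for Rag2, 0.56 for Dntt, 0.15 for Ptcra, 0.28 for RT1-T18, 0.077 for Notch3 and 0.54 for Myb, where 0.0022 is the smallest p that these sizes allow. The largest difference was that of Notch3, 5.18 ± 1.40 against 2.37 ± 2.03, a log2 difference of 1.15. On this scale 4 genes were lower in run D, Rag1 by 0.68, Dntt by 0.30, Rag2 by 0.26 and Myb by 0.19, and 3 were higher, with Ptcra at 0.61 and RT1-T18 at 0.60 beside Notch3. None of these differences passed the test.

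In the edgeR quasi-likelihood fit of the same 15 libraries, 3 of the 7 genes passed the count filter and 0 of them were called. Of all 12906 genes tested 0% were called at an adjusted p under 0.05, and 749 had an unadjusted p under 0.05. The log2 fold change of run D over the other runs was -0.30 ± 0.79 for Rag1 (SE, edgeR adjusted p 0.96), -0.46 ± 0.47 for Dntt (adjusted p 0.86) and -0.24 ± 0.30 for Myb (adjusted p 0.89). DESeq2 called 31 genes, none of them among the 3 tested, and limma-voom 0. The standard errors allow differences of more than 2-fold for Rag1 in either direction.

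Relations over the 15 libraries were computed for Rag1, Dntt and Myb, whose median was at least 10 counts, with each other, with the mean log2 levels of 4 gene lists and with the total count, 18 relations in all. In two-sided tests with 100000 permutations no relation passed an adjusted p of 0.05. The strongest was that of Myb with the T-cell list, with r = 0.69 and rho = 0.44 (permutation p 0.0044 and 0.099, adjusted over the 18 relations 0.080 and 0.34). It rests on controls 4 and 8, whose T-cell level is farthest from the median: r was 0.33 when they were left out (permutation p 0.26). Centred within run codes r was 0.84 and rho 0.59 over 13 libraries (adjusted permutation p 0.019 and 0.27), and under total count scaling they were 0.83 and 0.60 (adjusted permutation p 0.0059 and 0.13). Centred values were permuted over all libraries and not within codes. Every p after centring, here and below, is therefore approximate and can be too small.

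Dntt and Myb were related at r = 0.64 and rho = 0.41 (permutation p 0.013 and 0.13, adjusted 0.11 and 0.34). Their r was 0.74 after centring (adjusted permutation p 0.084) and 0.22 when controls 7 and 8 were left out. Under total count scaling r was 0.72 and passed (adjusted permutation p 0.044), while rho was 0.48 and did not (adjusted 0.25). For Rag1 and Dntt r was 0.33 and rho 0.28 (permutation p 0.23 and 0.31, adjusted 0.37 and 0.59), with r at 0.40 after centring and 0.66 when controls 13 and 16 were left out. For Rag1 and Myb r was 0.36 and rho 0.37 (permutation p 0.18 for each, adjusted 0.35 and 0.40), with r at 0.19 after centring and 0.39 in the absence of the same pair of libraries.

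Rag1 and the cell cycle list gave r = 0.55 and rho = 0.56 (permutation p 0.034 and 0.031, adjusted 0.13 and 0.19). Their r was 0.50 after centring and 0.33 when controls 10 and 16 were left out. Myb and the same list gave r = 0.20, and 0.67 under total count scaling (adjusted permutation p 0.044). The level of the progenitor list averages its 10 genes with a mean of at least 10, so Cd34 and Mpo are not in it. Spi1, Tal1 and Lmo2 were the most abundant of them, and which blood cells gave these transcripts was not tested. This list and Myb gave r = -0.60 and rho = -0.57 (permutation p 0.018 and 0.030, adjusted 0.11 and 0.19). For the same list and Dntt r was -0.52 and rho -0.62 (permutation p 0.037 and 0.016, adjusted 0.13 and 0.19). After centring the r of Myb and of Dntt with this list was -0.54 and -0.68, of which that of Dntt passed (adjusted permutation p 0.042, rho -0.57, adjusted 0.27), and when controls 3 and 10 were left out it was -0.45 and -0.48. Under total count scaling it was 0.07 and -0.07, so its direction for Myb depends on the scaling. The B-cell list and the total count gave r between -0.14 and 0.46.

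The genes whose levels followed each of the 3 most closely over the 15 libraries, by Pearson r of log2 levels among 9635 genes with a mean of at least 50, are given as a description. For Rag1 they were Gzmm (r = 0.85, rho = 0.68), a granzyme of killer lymphocytes, Ldhb (0.83, 0.81), Dusp10, Foxo4 and Golt1b. For Dntt they were Cdc25a (r = 0.90, rho = 0.68), a phosphatase of the cell cycle, Smchd1 (0.90, 0.85), Capn7, Zfp952 and Samd9l. For Myb they were Fam105a (r = 0.90, rho = 0.85), Rnf125 (0.90, 0.81), Zfp187, Zfp192 and Stat4, a transcription factor of T and natural killer cells. No gene appears in more than one of these lists, and with so many genes compared over 15 libraries high values of r arise without any relation.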

How the data were processed

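The authors removed globin mRNA, made stranded polyadenylated libraries and sequenced paired ends. Per the submitters' processing notes and the study's methods, reads were base-called with CASAVA 1.8.2, clipped with fastq-mcf, and aligned with Bowtie 0.12.9 to Ensembl release 70 transcripts (rn5). The deposited values are the authors' estimated counts per gene from RSEM 1.2.0. They are not normalized, and they were rounded here to whole numbers. RSEM was run at default parameters per the study's methods, which do not use strand, so overlapping genes on opposite strands cannot be told apart. No outlying value was replaced, although the study did so before averaging.

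Analyses used the 18031 genes listed for every library. Normalized counts were made with size factors from DESeq2 1.42.0, and log2 levels have a pseudocount of 1. The 7 genes, the gene lists and the motifs were chosen with earlier results of these data known. In each list the genes named are the 4 with the highest ratio of control 12 to the next library and those a sentence turns on. The 20 genes with the widest gap and the 5 most alike genes are also named. Run codes, read from the names of the deposited tables, were treated as batches of unknown kind, since the labels do not say whether they mark sequencing or experiments. Controls 11 and 13 were the closest pair of libraries, with a chi-square per degree of freedom of 48.0. No library thus differed from another by counting error alone, as the same library sequenced again would. The measure cannot tell whether libraries were prepared separately from the same RNA, though each carries its own animal identifier.

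Run D without control 12 was compared with edgeR 4.0.16 in R 4.3.3 (TMM, filterByExpr, Benjamini-Hochberg adjustment), with DESeq2 and limma 3.58.1 as alternatives. Tested on simulated counts for 12906 genes with 200 changed, this fit recovered 72% of 4-fold and 21% of 2-fold changes, with 5 false calls. Single values were compared with exact permutation tests. Alternatives also included other scalings, thresholds and pseudocounts, no count filter, and libraries left out. The permutation tests and plots were made in Python 3.11.15 (with scipy 1.17.1, pandas 2.3.3, numpy 2.4.6 and matplotlib 3.10.9).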

Additional observations from a re-analysis of the deposited data

How the results depend on the processing

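The ratios of control 12 to the next highest library stayed within the counting intervals for all 7 genes under TMM scaling, total count scaling, unrounded estimated counts and summed entries, but under total count scaling that of Rag2 was 87.3 instead of 56.6 and that of Ptcra 34.2 instead of 23.5. They also did so without controls 2, 8 and 10 among the other libraries, an alternative chosen after seeing the data. The number of genes with the gap, 63, was 104 under total count scaling, 150 without controls 2, 8 and 10, 20 with a minimum of 100 normalized counts, 97 with a minimum of 5, 161 at a ratio of 2 and 28 at a ratio of 8. In the comparison of run D the number of genes called was 0 to 1 when single libraries were left out (1 without control 8 and 1 without control 13) and 31 with DESeq2, where 1046 had an unadjusted p under 0.05. None of the 3 genes tested was called in these fits, nor any of the 7 in the fit with no count filter. With control 12 included the log2 fold changes turned to 6.62 for Rag1, 3.76 for Dntt and 0.94 for Myb. That of Rag1 ranged from -0.77 to 0.27 when single libraries were left out, and was above 0 only without control 13. No relation passed the threshold over 15 libraries, with a pseudocount of 5, without the 2 farthest libraries, or without controls 2, 8 and 10. The number was 2 after centring within run codes (Myb with the T-cell list and Dntt with the progenitor list), 3 under total count scaling (Myb with the T-cell list, with the cell cycle list and with Dntt) and 6 with control 12 included.

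Several weak relations changed sign. Without the 2 farthest libraries the r with the B-cell list was -0.11 for Rag1, -0.22 for Dntt and -0.23 for Myb, that of Myb with the cell cycle list was -0.09, and that of Dntt with the total count was 0.02. Without controls 2, 8 and 10 the r of Dntt was -0.02 with the T-cell list, -0.07 with the B-cell list and 0.22 with the total count, and that of Myb with the B-cell list was -0.27. The r of Myb was -0.05 with the cell cycle list after centring and 0.07 with the progenitor list under total count scaling. With control 12 included the r with the total count was 0.12 for Dntt and 0.04 for Myb. Except where values above show it, the cause was not tested. No paired analysis was possible because the libraries form 1 group. Depth limits Rag2, Ptcra, RT1-T18 and Notch3, which had 3 counts or fewer in most of the 15 libraries.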
